A study of Mus musculus with 8 samples.

Results

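The 9 genes described here encode enzymes of the tricarboxylic acid (TCA) cycle in mouse liver, and they were taken by symbol from the deposited table of 56748 Ensembl gene IDs. They are citrate synthase (Cs), isocitrate dehydrogenases (Idh3a, Idh2), subunits of the 2-oxoglutarate dehydrogenase complex (Ogdh, Dlst), subunits of succinyl-CoA synthetase (Suclg1, Sucla2), fumarase (Fh1) and malate dehydrogenase (Mdh2). Each symbol matched 1 ID, and all 9 passed the filter on low counts. The libraries came from liver RNA of mice on a high-fat, high-fructose diet, a model of metabolic dysfunction-associated steatotic liver disease, taken at 16 weeks. There were 4 libraries with the miR-93 knockout genotype (KO) and 4 with the wild-type genotype (WT), all on that diet. The sources used here do not give how the knockout was made, the sex or age of the mice, or which libraries share an animal. P-values therefore measure only the spread between these libraries, which may be technical.

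The TCA cycle runs in the mitochondrial matrix and oxidises acetyl-CoA to carbon dioxide, passing electrons to the respiratory chain as NADH and reduced ubiquinone. In liver it also supplies carbon for other pathways: citrate leaves for fatty acid and sterol synthesis, malate for glucose synthesis, and amino acid carbon enters at 2-oxoglutarate, succinyl-CoA and fumarate. All of its enzymes are encoded in the nucleus and imported into mitochondria, although fumarase is also found in the cytosol.

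The libraries differed by genotype in ways that bear on every value below. Total counts were 9187279 to 10966019 in KO and 5085860 to 7451026 in WT libraries. Transcripts of the mitochondrial genome took 8.08% to 15.03% of the counts in KO and 25.4% to 77.8% in WT (difference of means, two-sided exact permutation p = 0.0286, the smallest that 70 assignments allow). The 77.8% was WT replicate 4, which kept 1131446 counts outside the mitochondrial genome and 34 to 472 counts for each of the 9 enzymes. The deleted gene, Mir93, had 0 counts in all 8 libraries, so the counts do not check the genotype labels. The numbers of cell type markers called below use the test and threshold given in the next paragraph. By that test 10.4% of all tested genes were higher in KO and 10.7% lower, and 17.8% and 17.5% without WT replicate 4. The marker lists are short, so numbers such as 1 of 2 or 2 of 8 say little beside these shares. The hepatocyte markers were all detected, and their summed level was 38425 to 43163 CPM in KO and 47006 to 60498 CPM in WT, with 2 of 8 lower in KO and none higher, and 5 of 8 lower without WT replicate 4. Markers of skeletal muscle summed to at most 0.457 CPM in KO and 0.687 CPM in WT, and those of kidney to at most 0.421 CPM in KO and 1.64 CPM in WT. Markers of Kupffer cells summed to 162 to 195 CPM in KO and 47.6 to 212 CPM in WT, with 6 of 10 higher in KO, and 6 of 8 B and plasma cell markers were lower in KO, where their sum was 14.6 to 88.3 CPM against 62.0 to 555 CPM in WT. Of 8 sinusoidal endothelial markers 5 were higher in KO (sums of 138 to 260 CPM in KO and 90.4 to 188 CPM in WT), and of 8 stellate cell markers 3 were lower (97.6 to 105 CPM in KO and 90.8 to 222 CPM in WT). Of the T and NK cell markers 3 of 4 tested were lower (3.94 to 6.32 CPM in KO and 6.75 to 15.3 CPM in WT), and of the erythroid markers 2 of 5 (306 to 415 CPM in KO and 365 to 548 CPM in WT). The cholangiocyte markers, 1 of 2 tested being higher, summed to 31.4 to 33.0 CPM in KO and 10.1 to 20.3 CPM in WT, and the neutrophil markers, also 1 of 2, to 6.39 to 8.55 CPM in KO and 1.64 to 4.50 CPM in WT. Adipocyte markers were too low to test, at 0 to 0.168 CPM in KO and 0.632 to 4.50 CPM in WT, and exocrine pancreas markers summed to 6.93 to 8.96 CPM in KO and 6.19 to 8.84 CPM in WT. Without WT replicate 4, 9 of 10 Kupffer cell and 6 of 8 sinusoidal endothelial markers were higher in KO and none lower. Of 8 stellate cell markers 1 was then higher and 3 lower. Lower there were also 6 of 8 B and plasma cell, 3 of 4 T and NK cell and 3 of 5 erythroid markers. Higher were 2 of 4 cholangiocyte and 1 of 3 neutrophil markers. The part of these marker differences in the results below was not tested, and in bulk RNA fewer cells of a type and less RNA per cell cannot be told apart.

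The 9 enzymes did not move as a block. In KO livers 4 rose (Suclg1, Idh2, Sucla2 and Mdh2) and Fh1 fell, while Cs, Idh3a, Ogdh and Dlst did not pass the test. The test was edgeR's quasi-likelihood test with TMM scaling, which sets libraries to a common level through the bulk of their genes, and p-values were adjusted by Benjamini-Hochberg over all 13204 genes tested, with a threshold of 0.05. Of those genes 10.4% rose and 10.7% fell, so 1 of 9 lower is close to that background, and 4 of 9 higher is a larger share than it. The same 5 enzymes were those whose KO and WT libraries did not overlap, 4 with KO above (16.3% of all tested genes) and 1 with KO below (14.0%). The median log2 fold change, KO over WT, was 0.27 over the 9 enzymes and -0.01 over all tested genes. Levels are CPM, counts divided by library size and TMM factor, and fold changes are given ± the standard error of the fit with n = 4 per group.

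**Figure D1:**
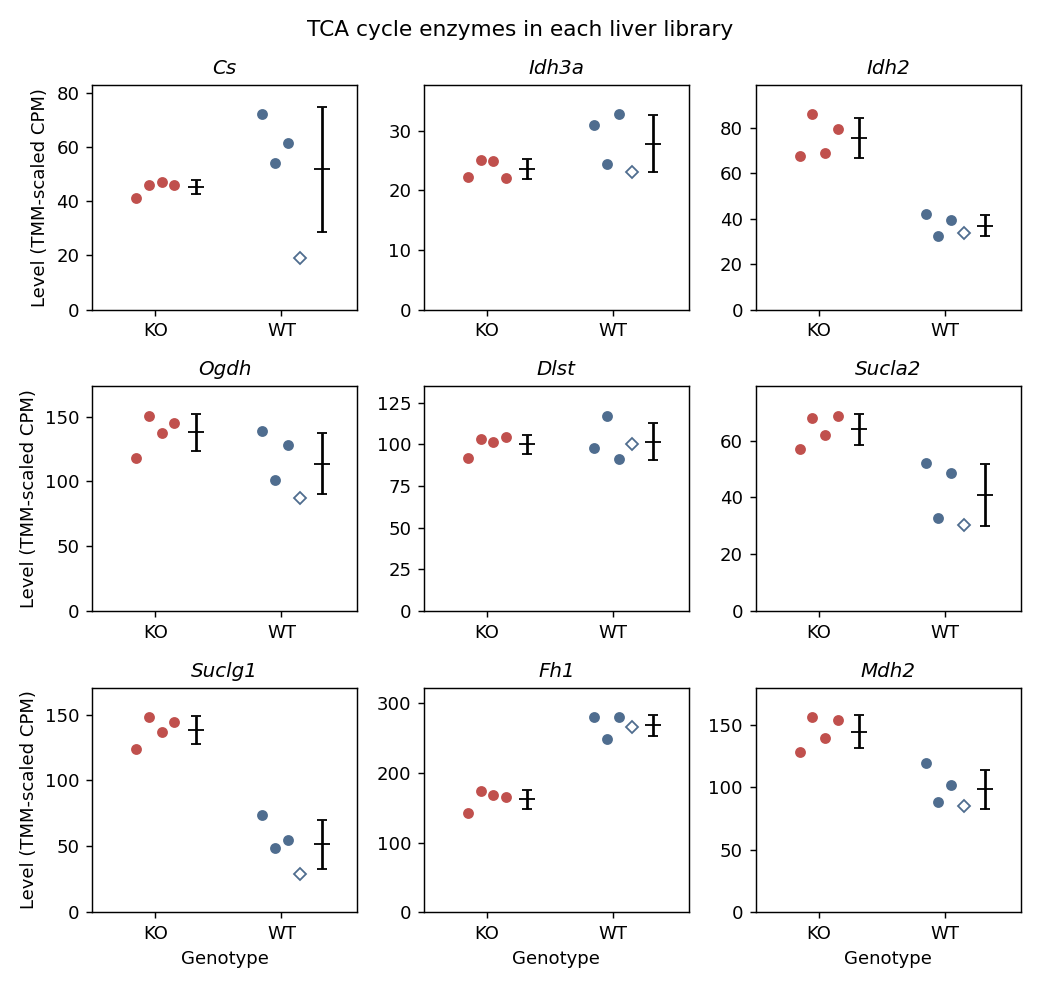
Level of each of the 9 TCA cycle enzymes (vertical axes, TMM-scaled CPM) in the 4 KO and 4 WT libraries (horizontal axes), with 1 point per library, the mean ± SD as a bar, and WT replicate 4 as an open diamond. Suclg1, Idh2, Sucla2 and Mdh2 lie higher in every KO library than in any WT library, Fh1 lies lower, and the other 4 overlap.

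Succinyl-CoA synthetase converts succinyl-CoA to succinate and makes a nucleoside triphosphate. Suclg1 (ENSMUSG00000052738), its alpha subunit, had 124, 148, 137 and 144 CPM in KO replicates 1 to 4, against 73.5, 49.1, 54.6 and 28.7 CPM in WT replicates 1 to 4. The lowest KO library lay well above the highest WT library, and WT replicate 4 was the lowest of all. Suclg1 rose 2.64-fold, the largest change among the 9 (log2 fold change 1.40 ± 0.22, 95% interval 0.91 to 1.89, edgeR adjusted p = 0.00159). Sucla2 (ENSMUSG00000022110) encodes the beta subunit of the ATP-forming enzyme and had 57.2, 68.0, 61.9 and 68.9 CPM in KO, against 52.0, 32.7, 48.7 and 30.4 CPM in WT. The groups did not overlap but came close, at 57.2 CPM in the lowest KO and 52.0 CPM in the highest WT library. Sucla2 rose (0.62 ± 0.18, 95% interval 0.23 to 1.02, edgeR adjusted p = 0.0319). This call was lost without KO replicate 2, 3 or 4 or WT replicate 2 (edgeR adjusted p 0.0701 to 0.1002), while that of Suclg1 held when any library was left out (at most 0.0111).

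Idh2 (ENSMUSG00000030541), the NADP-dependent isocitrate dehydrogenase of the matrix, which makes NADPH, had 67.6, 86.0, 68.8 and 79.5 CPM in KO, against 42.2, 32.3, 39.4 and 33.7 CPM in WT. Every KO library was well above every WT library, and here WT replicate 4 lay within the range of the other WT libraries. Idh2 rose 2.03-fold (1.02 ± 0.14, 95% interval 0.71 to 1.34, edgeR adjusted p = 0.000659), and the call held when any library was left out (at most 0.00501). Idh3a (ENSMUSG00000032279), the catalytic alpha subunit of the NAD-dependent isocitrate dehydrogenase that serves the cycle itself, had 22.2, 25.2, 24.9 and 22.1 CPM in KO, against 30.9, 24.5, 32.8 and 23.1 CPM in WT. The groups overlapped, with WT replicates 1 and 3 above the rest. Its change of -0.26 ± 0.14 did not pass (95% interval -0.57 to 0.06, edgeR adjusted p = 0.228), nor did it without WT replicate 4 (-0.31, 0.0546).

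Mdh2 (ENSMUSG00000019179) oxidises malate to oxaloacetate and takes part in the malate-aspartate shuttle. It had 128, 156, 140 and 154 CPM in KO, against 119, 88.2, 102 and 84.9 CPM in WT. The lowest KO library stood just above the highest WT library. Mdh2 rose (0.55 ± 0.15, 95% interval 0.22 to 0.87, edgeR adjusted p = 0.0230), a call that was lost without KO replicate 2, 3 or 4 or WT replicate 2 or 3 (edgeR adjusted p 0.0519 to 0.0783).

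Fh1 (ENSMUSG00000026526), fumarase, hydrates fumarate to malate and so stands directly before Mdh2 in the cycle. It had 143, 174, 168 and 165 CPM in KO, against 280.3, 248, 280.5 and 265 CPM in WT. The groups were far apart, and WT replicate 4 sat among the other WT libraries, which had the smallest spread of any of the 9 enzymes in WT (coefficient of variation 5.68%). Fh1 fell to 162 ± 13.6 CPM in KO, against 269 ± 15.3 CPM in WT (SD, n = 4 each), with a log2 fold change of -0.73 ± 0.13 (95% interval -1.01 to -0.45, edgeR adjusted p = 0.00267). The call held when any library was left out (at most 0.0166). A ratio of counts within a library does not depend on scaling, and that of Suclg1 to Fh1 was 0.867, 0.852, 0.815 and 0.875 in KO, against 0.262, 0.198, 0.195 and 0.109 in WT. KO libraries held nearly as many counts of Suclg1 as of Fh1, and WT libraries far fewer. This pair was chosen after its values were seen, so the ratio is a description without a test.

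Cs (ENSMUSG00000005683) joins acetyl-CoA and oxaloacetate to citrate, the entry step of the cycle. It had 41.3, 46.1, 47.0 and 46.1 CPM in KO, against 72.1, 54.2, 61.6 and 19.1 CPM in WT. WT replicate 4, with 34 counts, lay below every KO library, and the other 3 WT libraries lay above every KO library. Over all 8 libraries Cs did not pass (-0.24 ± 0.28, 95% interval -0.85 to 0.37, edgeR adjusted p = 0.575), while without WT replicate 4 it fell (-0.46 ± 0.11, edgeR adjusted p = 0.00146). In that comparison 4 of the 9 enzymes rose and 2 fell, against 17.8% and 17.5% of the genes tested there.

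Ogdh and Dlst form the 2-oxoglutarate dehydrogenase complex, which makes succinyl-CoA. Ogdh (ENSMUSG00000020456), its decarboxylase, had 118, 151, 138 and 145 CPM in KO, against 139, 101, 128 and 87.2 CPM in WT. The groups overlapped, and the change was 0.27 ± 0.17 (95% interval -0.10 to 0.64, edgeR adjusted p = 0.271). Dlst (ENSMUSG00000004789), its succinyltransferase core, had 91.6, 103, 101 and 104 CPM in KO, against 98.0, 117, 91.2 and 100.1 CPM in WT. No library stood apart, and the change of -0.02 ± 0.13 had a 95% interval of -0.31 to 0.26 (edgeR adjusted p = 0.925), which leaves out a change as large as that of any of the 5 enzymes that passed.

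Scaling sets the zero of these changes. With library size as the only scaling, which counts the mitochondrial transcripts in full, the median of all tested genes moved to 0.54, and 561 genes (4.25%) were called higher and 124 (0.939%) lower, against 1369 and 1408 with TMM. Suclg1 (1.86, edgeR adjusted p = 0.0477) and Idh2 (1.57, 0.0421) kept their calls there, while Sucla2 (1.13, 0.141), Mdh2 (1.08, 0.142) and Fh1 (-0.16, 0.786) lost theirs. Relative to that median the changes were 1.32 for Suclg1, 1.03 for Idh2, 0.59 for Sucla2, 0.53 for Mdh2 and -0.71 for Fh1. Leaving the mitochondrial genes out of the scaling and the fit gave the same 5 calls, and Fh1 then read -0.73.

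To set levels of different genes side by side, CPM was divided by the kilobases covered by exons of any annotated transcript of the gene. That length can differ from that of the transcripts present, so the order between genes is approximate. On this scale Fh1 stood highest of the 9 in both genotypes, at 47.9 ± 4.01 CPM per kb in KO and 79.2 ± 4.50 CPM per kb in WT (SD, n = 4 each). Mdh2 came next in both, at 40.5 ± 3.72 in KO and 27.6 ± 4.35 CPM per kb in WT. Suclg1 ranked after Mdh2 in KO, at 29.95 ± 2.33 CPM per kb, and after Ogdh and Idh2 in WT, at 11.1 ± 3.996 CPM per kb. In KO the order went on with Idh2 (29.2), Ogdh (25.3), Sucla2 (16.1), Dlst (10.5), Cs (7.81) and Idh3a (4.65 CPM per kb). In WT it was Ogdh (20.9), Idh2 (14.3), Suclg1 (11.1), Dlst (10.6), Sucla2 (10.3), Cs (8.95) and Idh3a (5.48 CPM per kb). In KO the ranges of neighbours overlapped between Fh1 and Mdh2, Suclg1 and Idh2, and Idh2 and Ogdh, and in WT between all neighbours except Fh1 and Mdh2. Within each of the 4 WT libraries Mdh2 was above Ogdh, Ogdh above Idh2 and Idh2 above Suclg1, while the order from Suclg1 down differed between WT libraries.

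Replicates varied less in KO than in WT for most enzymes. The coefficient of variation of the 9 enzymes ran from 5.78% to 11.7% in KO and from 5.68% to 44.4% in WT, with Cs at the upper end in WT. Without WT replicate 4 the WT range was 6.86% to 23.2%, with Sucla2 at its upper end and Cs at 14.4%. WT replicate 4 was the lowest WT library for 6 of the 9 (Cs, Idh3a, Ogdh, Sucla2, Suclg1 and Mdh2), and KO replicate 1 was the lowest KO library for 8, all but Idh3a. The summed level of the 9 enzymes was 793, 958, 886 and 929 CPM in KO replicates 1 to 4, against 907, 748, 838 and 673 CPM in WT replicates 1 to 4, so the sums overlapped while 5 members did not. In both genotypes the libraries ordered by this sum ran in the reverse order of their mitochondrial share, which was 15.03%, 8.08%, 11.7% and 9.30% in KO replicates 1 to 4, against 25.4%, 35.5%, 27.9% and 77.8% in WT replicates 1 to 4. Suclg1, Mdh2 and Ogdh each kept that reverse order in both genotypes, as did 2.61% of all tested genes. The part of the mitochondrial share in these levels was not tested.

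Further subunits of cycle enzymes were read beside them. Of 8 such genes 2 rose and none fell, with a median of 0.43, and 6 did not pass, where 10.4% of all tested genes rose and 10.7% fell. Both that rose belong to succinate dehydrogenase, which oxidises succinate to fumarate as complex II of the respiratory chain. Its membrane anchor Sdhd stood at 89.2 ± 19.1 CPM in KO and 46.4 ± 8.62 CPM in WT (0.93 ± 0.19, edgeR adjusted p = 0.00551), and its flavoprotein Sdha at 149 ± 26.8 CPM in KO and 90.5 ± 28.1 CPM in WT (SD, n = 4 each; 0.70 ± 0.23, edgeR adjusted p = 0.0478). The Sdha call was lost without any KO library in turn or WT replicate 2 or 3 (edgeR adjusted p 0.0560 to 0.142). The anchor Sdhc read 0.52 ± 0.22 (edgeR adjusted p = 0.118) and the iron-sulfur subunit Sdhb -0.21 ± 0.20 (0.488), so the 4 subunit genes of this complex did not share a call. Suclg2, the beta subunit of the GTP-forming succinyl-CoA synthetase, read 0.48 ± 0.24 (0.184), and Dld, the dihydrolipoyl dehydrogenase shared by several complexes, read 0.37 ± 0.29 (0.376). The regulatory subunits that pair with Idh3a read 0.18 ± 0.15 for Idh3b (0.416) and 0.08 ± 0.15 for Idh3g (0.753). Without WT replicate 4, 4 of these 8 rose (Sdhd, Sdha, Sdhc at 0.34 and Suclg2 at 0.27) and Sdhb fell (-0.38, edgeR adjusted p = 0.00158). Among all genes tested there 17.8% rose and 17.5% fell.

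**Figure D2:**
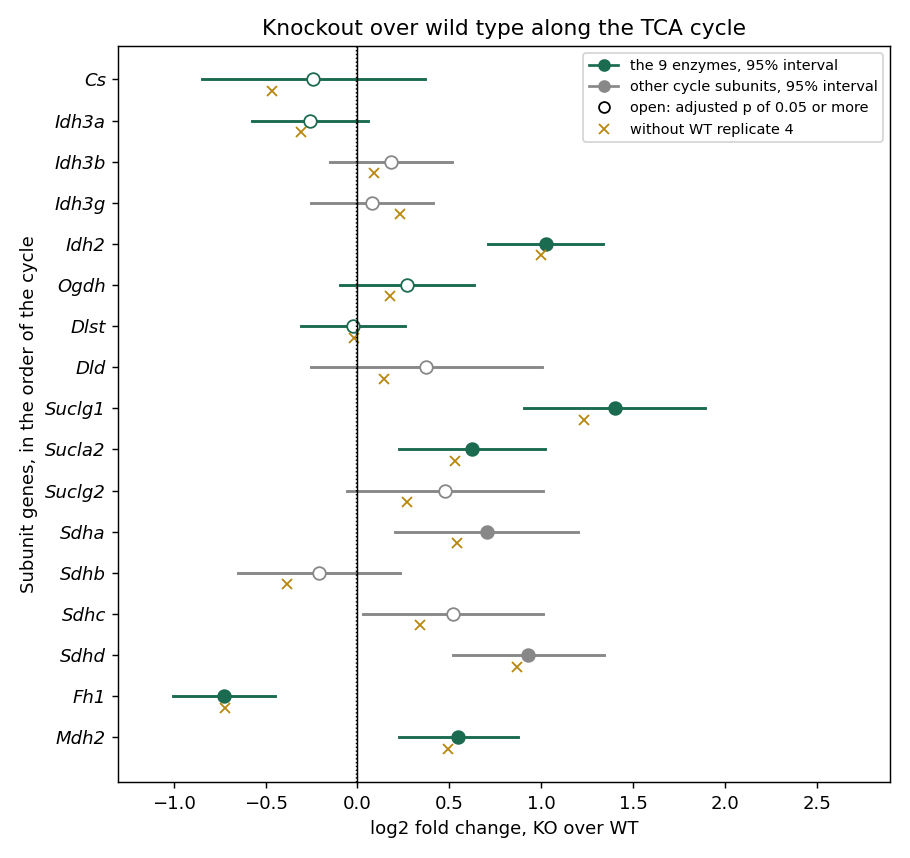
log2 fold change, KO over WT (horizontal axis), of the 9 enzymes and 8 further subunit genes in the order of the cycle (vertical axis), with 95% intervals, filled points for edgeR adjusted p below 0.05 and crosses for the fit without WT replicate 4; the dotted line is the median of all tested genes. Suclg1 at 1.40 and Idh2 at 1.02 lie farthest right, and Fh1 at -0.73 lies farthest left.

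Ratios of counts within a library do not depend on scaling, and 5 pairs were tested with two-sided exact permutation tests whose p-values were adjusted over the 5. The ratio of Idh2 to Idh3a, the NADP- and NAD-dependent matrix enzymes, was 3.04, 3.41, 2.76 and 3.596 in KO, against 1.36, 1.32, 1.20 and 1.46 in WT. All 4 KO libraries lay above all 4 WT libraries, with a difference in mean log2 ratio of 1.26 and p = 0.0286, which after adjustment in this exact test was 0.143 and did not pass. That p is the smallest that 70 assignments allow, and a single ratio at it among 5 always adjusts to 0.143. Not passing therefore follows from the number of libraries together with no other ratio reaching that p, and says nothing against a difference in this ratio. No other pair separated the genotypes over all libraries. The ratio of Mdh2 to its cytosolic counterpart Mdh1 was 0.352, 0.362, 0.352 and 0.353 in KO, against 0.227, 0.219, 0.210 and 0.593 in WT (difference 0.34 in log2, exact permutation adjusted p = 0.600). The value above KO was WT replicate 4, and without it the difference was 0.70. The ratio of Idh2 to the cytosolic Idh1 was 0.344, 0.379, 0.313 and 0.365 in KO, against 0.129, 0.138, 0.145 and 0.450 in WT (0.92 in log2, exact permutation adjusted p = 0.357), again with WT replicate 4 above the KO libraries, and 1.35 without it. The ratio of Sucla2 to Suclg2, the alternative beta subunits, was 0.350, 0.336, 0.339 and 0.350 in KO, against 0.304, 0.233, 0.315 and 0.472 in WT (0.10 in log2, exact permutation adjusted p = 0.600), with WT replicate 4 above the KO libraries and the others below them, and 0.29 without it. The ratio of Ogdh to Dlst was 1.29, 1.46, 1.36 and 1.39 in KO, against 1.42, 0.863, 1.40 and 0.871 in WT (0.31 in log2, exact permutation adjusted p = 0.571), where WT replicates 1 and 3 lay among the KO libraries.

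**Figure D3:**
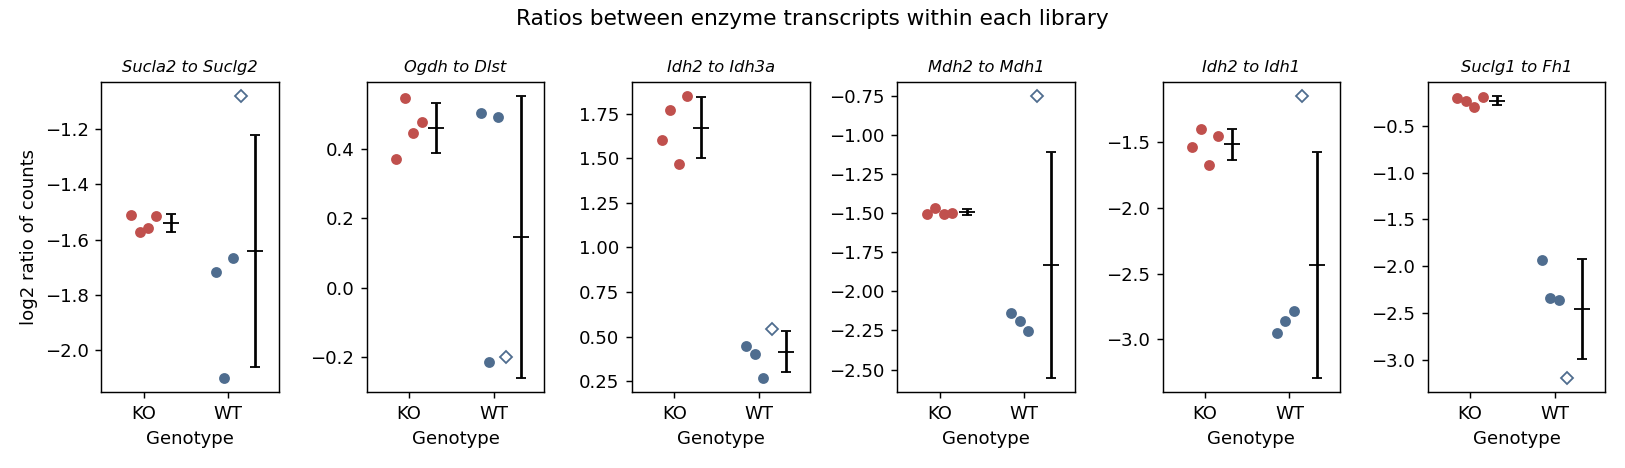
log2 ratio of the counts of 2 genes in each library (vertical axes), for the 4 KO and 4 WT libraries (horizontal axes), with mean ± SD bars and WT replicate 4 as an open diamond. Idh2 to Idh3a and Suclg1 to Fh1 separate all KO from all WT libraries, while in Mdh2 to Mdh1 and Idh2 to Idh1 WT replicate 4 alone lies above the KO libraries.

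Among genes that feed pyruvate into the cycle, 3 of 11 tested members were higher and 2 lower (13 listed), against 10.4% and 10.7% of all tested genes. The mitochondrial pyruvate carrier genes rose: Mpc1 to 83.3 ± 7.50 CPM in KO, against 36.6 ± 15.6 CPM in WT (1.14 ± 0.27, edgeR adjusted p = 0.0122), and Mpc2 to 139.9 ± 2.03 CPM in KO, against 80.3 ± 21.5 CPM in WT (SD, n = 4 each; 0.79 ± 0.18, 0.0114). Pdk4, a kinase that switches off pyruvate dehydrogenase, was low in both groups, at 3.62 to 4.72 CPM in KO and 0.562 to 1.37 CPM in WT, where a library held 1 to 10 counts, and rose (1.96 ± 0.35, 0.00291). Pdhb, the beta subunit of that dehydrogenase's decarboxylase, fell (-0.73 ± 0.13, 0.00255), and so did the kinase Pdk1 (-0.90 ± 0.12, 0.000471). These are all 5 that passed, Mpc1 being named after its values were seen. Without WT replicate 4 the counts were 4 higher and 4 lower, against 17.8% and 17.5% of the genes tested there.

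Of 14 tested genes that bring carbon into the cycle or take it out, 1 rose and 4 fell (15 listed), against 10.4% and 10.7% of all tested genes. Pcx, pyruvate carboxylase, which makes oxaloacetate from pyruvate, rose to 289.8 ± 45.4 CPM in KO, against 132 ± 41.8 CPM in WT (SD, n = 4 each; 1.12 ± 0.24, edgeR adjusted p = 0.00732). Acly, which splits exported citrate in the cytosol to make acetyl-CoA for lipid synthesis, fell (-3.03 ± 0.15, 3.11e-07), and the citrate carrier gene Slc25a1 fell with it (-0.60 ± 0.12, 0.00553). Gls2, the liver glutaminase, fell (-1.25 ± 0.14, 0.000123). The dicarboxylate carrier gene Slc25a10, named after its values were seen, fell (-0.45 ± 0.12, 0.0226), a call that was lost without any KO library in turn or WT replicate 2 or 3 (edgeR adjusted p 0.0571 to 0.0788). Without WT replicate 4 the counts were 4 higher and 6 lower, against 17.8% and 17.5% of the genes tested there. Among the 4 cytosolic counterparts, Got1, the cytosolic aspartate aminotransferase, fell (-2.10 ± 0.15, 6.09e-06), while Mdh1 (0.06 ± 0.31, 0.915), Idh1 (-0.09 ± 0.33, 0.880) and Aco1 (0.37 ± 0.19, 0.183) did not pass. Without WT replicate 4, 2 of these fell, against 17.5% of the genes tested there.

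None of the 9 tested genes of lipoylation and complex assembly passed (10 listed, among them Lias, which makes the lipoyl group that Dlst carries, and the Sdhaf assembly factors). Without WT replicate 4, 2 of them fell, against 17.5% of the genes tested there. Of 20 genes of mitochondrial mass and biogenesis 5 rose and none fell, with a median of 0.17, where 10.4% of all tested genes rose and 10.7% fell. The 5 that rose were Gabpa, a subunit of a transcription factor of nuclear genes for mitochondria (0.69 ± 0.14, edgeR adjusted p = 0.00633), the import channel gene Timm23 (0.78 ± 0.19, 0.0135), the matrix chaperone genes Hspd1 (0.75 ± 0.20, 0.0229) and Hspa9 (0.86 ± 0.24, 0.0280), and the import receptor gene Tomm20 (0.76 ± 0.22, 0.0314), the last named after its values were seen. Of these 5 only the Gabpa call held when any 1 library was left out. The 12 tested protein-coding genes of the mitochondrial genome all fell, with a median of -3.14 (mt-Co1 -3.40 ± 0.74, 0.0114). With library size as the only scaling, the calls that remained in these lists were Pdk4, Acly, Got1 and 9 of the 12 mitochondrial genes. In that setting 4.25% of all tested genes were called higher and 0.939% lower.

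**Figure D4:**
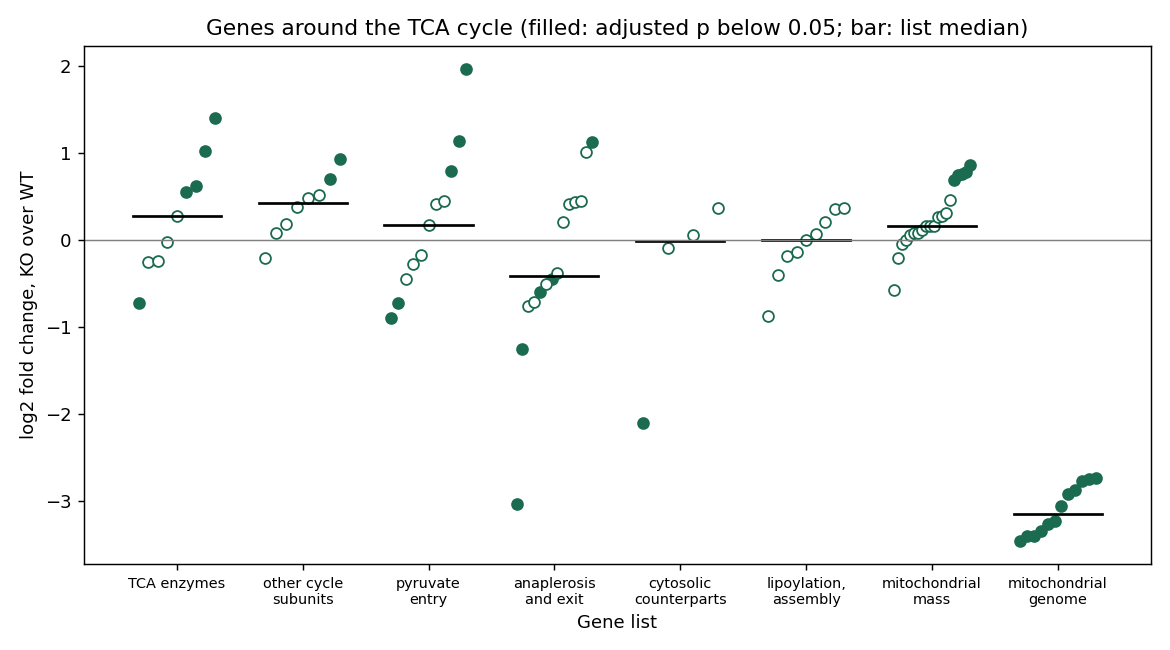
log2 fold change, KO over WT (vertical axis), of each tested gene in 8 lists (horizontal axis), ordered within a list, with filled points for edgeR adjusted p below 0.05 and a bar at the list median. The 9 TCA enzymes spread from -0.73 to 1.40, and the mitochondrial genome lies below all other lists at a median of -3.14.

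The microRNA removed in KO binds messenger RNAs mainly through its seed, bases 2 to 8. The mature mouse miR-93-5p is shown from RefSeq with the seed in capitals, and U as in the table:

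mmu-miR-93-5p: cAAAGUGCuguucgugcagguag

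The complement of that seed (GCACTTT) was looked for in 3′ UTRs, taking the longest that the annotation gives a gene. None of the 9 enzymes held it, with UTRs of 539 to 1662 bases (median 968), against 15.04% of 11598 tested genes with a UTR (median 1346 bases). Shorter UTRs offer fewer places for a match, and 9 genes are few to set beside that share. Of the other 8 subunits only Sdhd held it, once. No match says only that these letters are not in the UTR used. Sirt1, the target named in the series title, read -0.34 ± 0.21 (edgeR adjusted p = 0.268).

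RefSeq promoter windows, 250 bases before to 50 after a start, were on hand for 8 of the 9 enzymes, all but Idh3a. Those of Suclg1, which had the largest rise, and of Mdh2 and Fh1, neighbours in the cycle that moved in opposite directions, are printed 5′ to 3′, with capitals marking CCAAT boxes (CCAAT, either strand) and CGCG elements (TCTCG followed by its reverse complement), which do not overlap here:

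Suclg1 (GRCm38.p6 chr6:73248255-73248554, plus strand): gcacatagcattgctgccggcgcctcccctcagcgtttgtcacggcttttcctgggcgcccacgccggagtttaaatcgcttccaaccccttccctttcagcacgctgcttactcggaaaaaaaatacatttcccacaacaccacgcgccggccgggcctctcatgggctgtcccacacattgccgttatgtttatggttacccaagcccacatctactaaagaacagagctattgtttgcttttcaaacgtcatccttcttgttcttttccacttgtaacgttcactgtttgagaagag

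Mdh2 (GRCm38.p6 chr5:135778399-135778698, plus strand): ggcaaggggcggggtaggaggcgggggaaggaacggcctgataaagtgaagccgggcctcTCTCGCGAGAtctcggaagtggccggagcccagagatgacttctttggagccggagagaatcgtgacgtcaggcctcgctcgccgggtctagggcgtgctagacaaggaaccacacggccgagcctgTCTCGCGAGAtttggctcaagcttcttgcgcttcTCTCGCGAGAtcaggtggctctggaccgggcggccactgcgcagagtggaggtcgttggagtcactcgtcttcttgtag

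Fh1 (GRCm38.p6 chr1:175625586-175625885, minus strand): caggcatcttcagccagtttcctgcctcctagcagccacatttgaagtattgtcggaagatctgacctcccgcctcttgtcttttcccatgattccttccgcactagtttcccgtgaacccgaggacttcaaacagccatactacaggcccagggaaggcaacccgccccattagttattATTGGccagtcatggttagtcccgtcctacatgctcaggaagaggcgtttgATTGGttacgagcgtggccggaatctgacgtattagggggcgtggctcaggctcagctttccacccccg

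The CGCG element, searched after the windows were read, occurs 3 times in the Mdh2 window and in no other enzyme's window. It is in 0.466% of all 32851 windows, and 2 windows in all hold 3 or more. The 8 enzymes have 13 windows, since Ogdh has several starts, and some Ogdh windows overlap and repeat the same letters. The CCAAT box is in 9 of the 13 (37.4% of all windows). By gene it is in 4 of the 8, Fh1, Idh2, Cs and Ogdh, close to the 41.1% of all genes with a window. It is in no window of Suclg1, Sucla2, Mdh2 or Dlst. The GC box (GGGCGG, either strand) is in 10 of the 13 (35.7% of all windows). By gene it is in 7 of the 8, against 38.2% of all genes with a window, and it is missing from the Suclg1 window. The NRF1 site (GCGCA followed by its reverse complement), the ERR response element (AGGTCA preceded by TCA) and the PPAR element (AGGTCA, any base, AGGTCA), on either strand, are in none of the 8 and in 0.971%, 0.423% and 0.0396% of all windows. The E-box (CACGTG) is in windows of Ogdh alone, 1 of the 8, against 8.09% of all genes with a window. The cyclic AMP response element (TGAC followed by its reverse complement) is in windows of Ogdh and Mdh2, 2 of the 8, against 2.03%. The Suclg1 window holds none of the motifs searched, so none could be shared by the 4 enzymes that rose. A match or its absence in a window is a description of letters only.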

How the data were processed

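Whole-transcriptome RNA of 8 mouse liver libraries, 4 miR-93 knockout and 4 wild-type, was read from 1 deposited table of raw read counts per Ensembl gene. The authors trimmed reads with cutadapt 4.2 and aligned them with STAR 2.7.10a to mm39 before depositing the counts, per the submitters' processing notes. The counter, the annotation, the strand setting and the rule for reads that map to several places are not given in the sources used here. Symbols, exon lengths and 3′ UTRs came from GENCODE M21 on GRCm38, which named 52073 of 56748 IDs, and miRNA and promoter sequences from RefSeq on GRCm38.p6. The unnamed 4675 IDs stayed in the fit. None of the 9 enzymes shares exon bases with another gene there.

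Counts were tested with edgeR 4.0.16 (filterByExpr by genotype, TMM, robust glmQLFit, glmQLFTest, two-sided) under R 4.3.3, with Benjamini-Hochberg adjustment over 13204 genes and a threshold of 0.05. The standard error is the fold change divided by the square root of F, and intervals are at 95%. Per-library count ratios used a pseudocount of 0.5 in each gene and an exact permutation test over 70 assignments (scipy 1.17.1). A count of 3 corresponds to 0.219 to 0.455 TMM-scaled CPM in 7 libraries and to 1.69 CPM in WT replicate 4, which covers counting error only. The script was tested on simulated data. There 56 of 100 planted log2 changes of 1 and 92 of 100 of 2 were called, with 7 false among 155 calls. Changes of such sizes can therefore be missed.

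Alternatives were DESeq2 size factors, upper quartile and library size only scaling, leaving out the mitochondrial genome, no filter, a minimum count of 30 in place of 10, DESeq2 1.42.0, limma-voom 3.58.1 with quality weights, the replicate number as a block, a pseudocount of 1 and leaving out each library. Replicate numbers were not used to pair libraries. The 9 enzymes, the gene lists, the tests and the alternatives were chosen with earlier results of these data known. Named genes are the 9 enzymes, 8 other subunits, Mir93, Sirt1 and, of each further list, up to 4 past the threshold by smallest p. Mdh1 and Idh1 are named for their ratios, and Aco1, which did not pass, with the rest of its list. Lias and the Sdhaf factors are named only to describe a list in which none passed. Others are marked as named after their values were seen. One further gene of the cycle is not reported here.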

Additional observations from a re-analysis of the deposited data

Results flagged for a closer look

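In 46 groups of 4 libraries, covering the levels of the 9 enzymes, the 8 further subunits and 6 count ratios in each genotype, a library was marked where its gap to the nearest of the others as a share of the group's range exceeded Dixon's 95% critical value. Chance marks about 1 in 20 groups, and 6 of the 46 were marked. Cs in KO had replicate 1 at 41.3 CPM, below the others at 46.1 to 47.0 CPM (gap 0.838 of the range). Idh3g in WT had replicate 4 at 75.9 CPM, above the others at 49.5 to 51.9 CPM (0.908). Sdhb in WT had replicate 4 at 87.7 CPM, below the others at 167 to 179 CPM (0.873). The log2 ratio of Mdh2 to Mdh1 in KO had replicate 2 at -1.47, above the others at -1.51 to -1.50 (0.841). The same ratio in WT had replicate 4 at -0.75, above the others at -2.25 to -2.14 (0.926). The log2 ratio of Idh2 to Idh1 in WT had replicate 4 at -1.15, above the others at -2.95 to -2.79 (0.909). WT replicate 4 is the library with 77.8% mitochondrial counts, and the part of that share in these values was not tested.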

How the results depend on the processing

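The 5 calls among the 9 enzymes (4 higher, 1 lower) were the same 5 with DESeq2 size factors, upper quartile scaling, the mitochondrial genome left out, no filter, the stricter filter and DESeq2. With library size only, all genes called numbered 685 in place of 2777, with 2 enzymes higher and 0 lower, and 0 other subunits higher. With limma-voom quality weights 4984 of the 13204 genes were called, 4 enzymes were higher and 3 lower (Cs, Idh3a and Fh1), and 4 other subunits were higher and 1 lower. That setting gave WT replicate 4 a weight of 0.166, against 0.855 to 1.99 for the other libraries. It is therefore close to leaving that library out and is not separate evidence for the Cs call. Leaving out 1 library gave 1489 (without KO replicate 4) to 4853 genes (without WT replicate 4), 2 to 4 enzymes higher, 1 to 2 lower, 1 to 4 other subunits higher and 0 to 1 lower. The replicate block gave 1267 genes, 2 enzymes higher (Idh2 and Suclg1) and 1 lower, and 1 other subunit higher, but same-numbered libraries did not deviate together (correlations -0.19, -0.03, -0.07 and -0.09), so the numbers were not taken as pairs. With library size only, values not called, and that of Slc25a10, changed sign: Cs 0.19, Idh3a 0.27, Dlst 0.54, Sdhb 0.25 and Slc25a10 0.12. The near-zero Dlst value also turned to 0.0401 without a filter and 0.0351 with limma-voom, and ran from -0.0673 to 0.0605 when 1 library was left out. The Slc25a10 call was also lost without a filter (edgeR adjusted p = 0.159). The difference in mitochondrial share, KO minus WT, was -30.6 percentage points and ran from -36.0 to -18.6 when 1 library was left out. Of the 5 ratios, that of Sucla2 to Suclg2 ran from -0.0516 (without WT replicate 2) to 0.287 (without WT replicate 4), the others kept their sign, and a pseudocount of 1 changed no call. With 3 libraries against 4 the exact permutation test, which doubles the smaller tail, gives at least 0.0571 (35 assignments). A p from the absolute difference, added after seeing the data, reaches 0.0286. Without WT replicate 4 all KO libraries lay above all WT libraries for Sucla2 to Suclg2 (0.287), Idh2 to Idh3a (1.30), Mdh2 to Mdh1 (0.698) and Idh2 to Idh1 (1.35). Each of these then had an adjusted p of 0.0714 in the exact permutation test that doubles the smaller tail, and did not pass. From the absolute difference the adjusted permutation p of each was 0.0357. By either p no ratio passed when any other library was left out. There Idh2 to Idh3a alone separated the genotypes and, as a single ratio, could not pass. The cause of these changes was not tested. Depth limits WT replicate 4 most, which had 34 counts of Cs.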
